A study of Mus musculus with 24 samples.

Results

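Nfe2l2, Hmox1, Nqo1, Gclm, Gclc, Srxn1, Txnrd1, Slc7a11, Sqstm1 and Gsr are 10 genes of the oxidative stress response that the transcription factor NRF2 controls. They were chosen by symbol, with earlier results of these data known. They make up 10 of the 14769 genes listed in the deposited expression tables. All 10 were listed in each of the 4 tables.

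The cortex samples came from male mice that were 3 to 4 months old. In every animal a filament had closed the middle cerebral artery for 1 h, and blood flow had then been restored for 1 day, a surgical model of ischemic stroke known as tMCAo. The animals were wild type (WT) or knockout for ciRS-7 (KO), a circular RNA known too as Cdr1as, to which the microRNA miR-7 binds. The strain label is C57BL/6N-Cdr1asem1Nikr for animals of both genotypes. Each animal gave a cortex sample marked CL and one marked PI, marks that the labels do not spell out and that are used here as given. The 24 libraries thus fall into 4 groups of 6 animals, 2 sides (CL and PI) in each of 2 genotypes. All groups carry the surgery, and unoperated animals are not analysed here. The study's stated question was how gene expression differs between WT and KO animals after stroke.

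NRF2 is a leucine zipper factor that KEAP1 holds in the cytoplasm and hands to a CUL3 ubiquitin ligase for destruction. Oxidants and electrophiles modify KEAP1, after which NRF2 accumulates, pairs with a small MAF protein and binds antioxidant response elements in the promoters and enhancers of its targets. BACH1 occupies many of the same elements as a repressor and lets go of DNA when it binds haem, so Hmox1 answers to haem as well as to oxidants. In brain the pathway is known to be more active in astrocytes than in neurons.

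Expression is given as log2 CPM, a gene's reads relative to the total of its library on a log2 scale, and is printed here as CPM where a level is meant. In every gene and group of the tables the lowest pair of values was tied and so was the highest pair, because the outer values had been drawn in towards the middle. The 4 inner values of each group of 6 were recovered on the assumption that each tied value is a quartile of its group. Levels are therefore given as the second lowest, the median and the second highest library, and overlap between groups refers to these recovered values unless stated otherwise. Each table holds 2 groups and was scaled on its own, so every comparison was made within a table. Depth, read from the size of 1 read in the values, was 3.75 to 10.5 megareads per library, with a CL KO library (animal 6) the shallowest. Cdr1as had a median of 3766 CPM in CL WT and 2639 CPM in PI WT, and the highest recoverable value in KO was 0.148 CPM in CL and 0.169 CPM in PI, which matches the labels. Neuronal markers were present in all libraries, at a sum of 4677 CPM or more.

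The classical element bound by NRF2 has the core TGACNNNGC, and a second common form is TGAGNNNGC. Promoter windows from RefSeq (GRCm38.p6), reaching from 250 bases before to 50 bases after an annotated start, were found for 7 of the 10 genes, as 9 windows. None was found for Hmox1, Gclc and Gsr. On either strand, TGACNNNGC occurred in 4 windows, of Nfe2l2, Gclm, Srxn1 and Txnrd1, against 12.4% of all 32851 windows of this length. TGAGNNNGC, searched after the sequences had been read, occurred in those of Srxn1 and Slc7a11, against 17.6% of all windows. No match was found in the windows of Nqo1 and Sqstm1 or in the other windows of Txnrd1, which are not printed. The 5 windows with a match are printed 5′ to 3′ on the strand of the gene, with the letters of the matches in capitals. They belong to genes that rose between CL and PI in at least 1 genotype. They lie at chr2:152105274-152105573 (Srxn1, plus strand), chr10:82858956-82859255 (Txnrd1, the second of its 3 windows, plus strand), chr3:50443564-50443863 (Slc7a11, minus strand), chr3:122245307-122245606 (Gclm, plus strand) and chr2:75704614-75704913 (Nfe2l2, minus strand).
Srxn1: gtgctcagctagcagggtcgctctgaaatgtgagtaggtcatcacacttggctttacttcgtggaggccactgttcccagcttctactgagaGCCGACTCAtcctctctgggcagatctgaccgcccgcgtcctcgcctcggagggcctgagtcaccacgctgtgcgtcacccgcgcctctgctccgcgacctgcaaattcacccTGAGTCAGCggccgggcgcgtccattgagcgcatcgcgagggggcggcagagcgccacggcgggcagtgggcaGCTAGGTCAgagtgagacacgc
Txnrd1: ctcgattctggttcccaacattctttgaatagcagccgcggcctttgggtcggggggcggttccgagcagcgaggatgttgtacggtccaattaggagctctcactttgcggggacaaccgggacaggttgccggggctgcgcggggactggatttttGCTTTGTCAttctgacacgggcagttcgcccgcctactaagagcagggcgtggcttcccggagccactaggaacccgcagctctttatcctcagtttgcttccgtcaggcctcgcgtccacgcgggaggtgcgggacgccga
Slc7a11: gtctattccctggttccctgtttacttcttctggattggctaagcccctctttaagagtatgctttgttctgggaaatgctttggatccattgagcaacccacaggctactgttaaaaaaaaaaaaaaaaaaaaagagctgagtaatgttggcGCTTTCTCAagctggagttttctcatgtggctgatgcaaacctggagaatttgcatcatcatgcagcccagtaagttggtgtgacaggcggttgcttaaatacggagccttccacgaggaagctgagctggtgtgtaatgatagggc
Gclm: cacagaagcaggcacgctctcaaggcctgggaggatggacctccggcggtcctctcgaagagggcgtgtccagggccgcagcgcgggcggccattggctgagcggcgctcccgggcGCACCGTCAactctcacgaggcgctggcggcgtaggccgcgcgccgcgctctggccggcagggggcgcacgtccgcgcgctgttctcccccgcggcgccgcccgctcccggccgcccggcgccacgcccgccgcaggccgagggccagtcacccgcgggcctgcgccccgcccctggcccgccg
Nfe2l2: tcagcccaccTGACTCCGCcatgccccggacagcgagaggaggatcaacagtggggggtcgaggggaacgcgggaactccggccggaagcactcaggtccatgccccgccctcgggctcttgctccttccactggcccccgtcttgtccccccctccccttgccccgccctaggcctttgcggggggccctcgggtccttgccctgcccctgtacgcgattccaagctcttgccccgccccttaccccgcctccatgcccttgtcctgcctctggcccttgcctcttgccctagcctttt
Srxn1 alone of these windows held more than 1 match. Counted from the annotated start as position 0, its matches began at -158 (GCCGACTCA), -45 (TGAGTCAGC) and 28 (GCTAGGTCA). The one at -45 also holds TGAGTCA, the letters of an AP-1 site, and no other match held such letters. The match began at -92 in Txnrd1 (GCTTTGTCA), at -97 in Slc7a11 (GCTTTCTCA), at -134 in Gclm (GCACCGTCA) and at -240 in Nfe2l2 (TGACTCCGC). A match describes letters only, and binding was not measured in these samples.

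Between PI and CL cortex of the same genotype, Hmox1 rose 6.85-fold in WT and 6.77-fold in KO. The cystine importer gene Slc7a11 and the thioredoxin pathway genes Srxn1 and Txnrd1 also rose in both genotypes, by smaller amounts. Of the 10 genes, 5 rose in WT (Hmox1, Slc7a11, Srxn1, Txnrd1 and Gsr), none fell, and 10.6% of all 14489 genes were called in either direction (5.2% upward). In KO, 6 rose (Hmox1, Slc7a11, Srxn1, Txnrd1, Nfe2l2 and Gclm) and none fell, where 10% of all 14338 genes were called (5.11% upward). Since the 10 genes were chosen with earlier results known, these shares describe them and do not test the set. With the prior variance set without a trend over expression, 3 of the 10 were called in KO (Hmox1, Srxn1 and Slc7a11), beside 5.15% of all genes. Called genes are those with an adjusted p below 0.05 in a two-sided moderated trimmed-mean test. It uses limma's empirical Bayes step and Benjamini-Hochberg adjustment over all genes of the table. This main test does not pair the CL and PI samples of an animal. With the animal as a block, 6 of the 10 were called in WT, beside 2275 of all 14489 genes. In KO the block called 7 of the 10, beside 2154 of all 14338 genes. The estimate was above 0 for all 10 genes in both genotypes. Its median over the 10 was 0.43 on the log2 scale in WT and 0.51 in KO, beside medians over all genes of 0.01 and -0.00. As deposited, every PI library lay above every CL library for 9 of the 10 genes in WT (16.5% of all genes) and for 9 in KO (17.1% of all genes). Nqo1, Gclc and Sqstm1 passed the test in neither genotype.

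**Figure D1:**
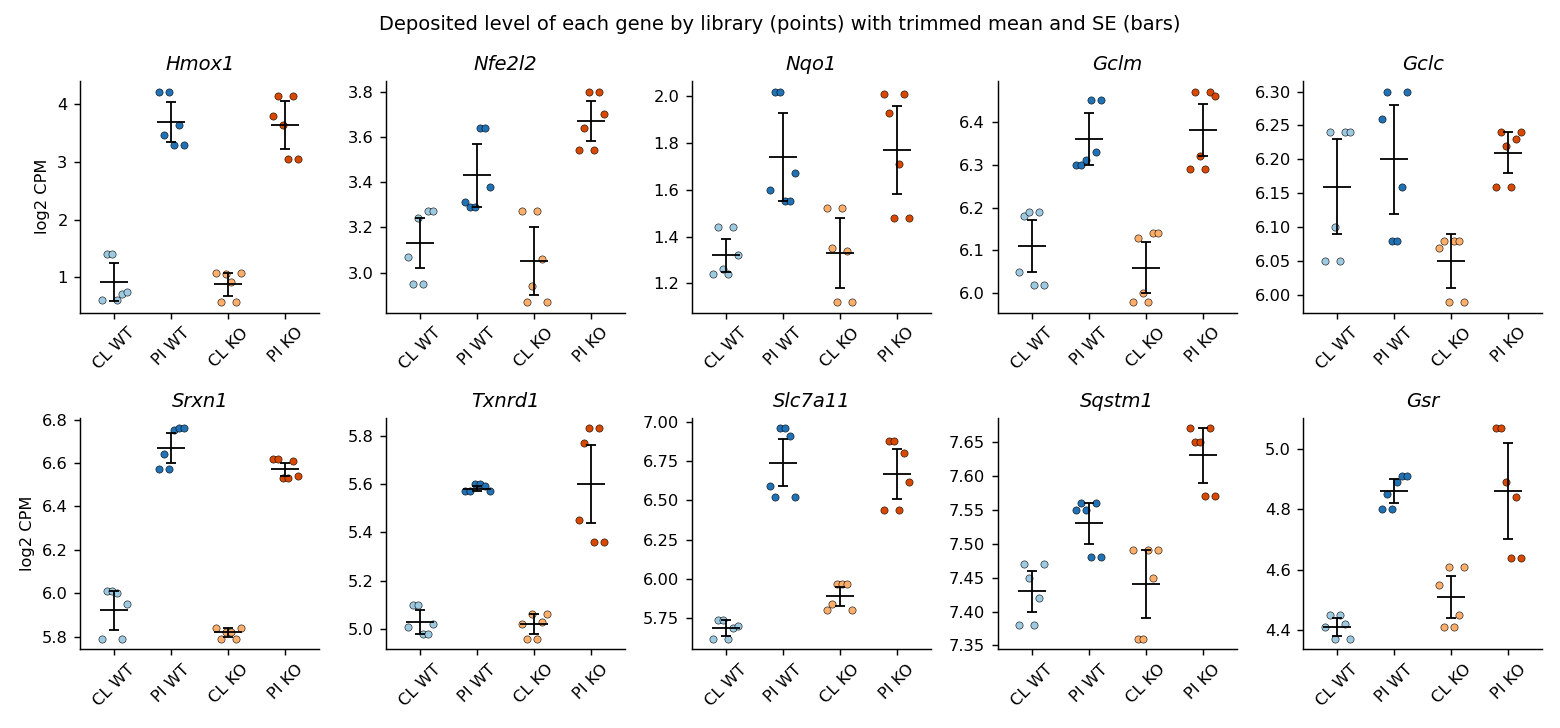
Deposited level of each of the 10 genes in every library, on a log2 CPM axis with its own range in each panel. Points are libraries (6 per group, outer values drawn in by the authors), the horizontal line is the trimmed mean of the recovered values and the bars are its SE. The PI points of Hmox1, Srxn1, Txnrd1 and Slc7a11 lie above all CL points of the same genotype, while those of Gclc in WT lie among them.

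Hmox1 (ENSMUSG00000005413.8, GRCm38 chr8:75093621-75100589, plus strand) encodes haem oxygenase 1, the inducible enzyme that opens haem into biliverdin, carbon monoxide and iron. In CL WT its level ran from 1.48 CPM (second lowest) through a median of 1.65 to 3.08 CPM (second highest), and in PI WT from 9.42 through 11.7 to 21.3 CPM. In CL KO it ran from 1.36 through 1.98 to 2.13 CPM and in PI KO from 7.23 through 13.1 to 19.3 CPM. The PI and CL groups did not overlap in either genotype. PI was above CL by 2.78 on the log2 scale in WT (SE 0.36, 6.85-fold, 95% confidence interval 4.01 to 11.7-fold, n = 6 animals, limma-moderated adjusted p = 0.000448) and by 2.76 in KO (SE 0.35, 6.77-fold, interval 4.03 to 11.4-fold, adjusted p = 0.000452). At the median depth of a group these medians stand for about 11.7 reads in CL WT, 81.8 in PI WT, 14 in CL KO and 84.2 in PI KO, so the CL levels carry the larger counting error.

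Hmox1 also varied more among PI animals than genes of its level. From the second lowest to the second highest animal it spanned 2.26-fold in PI WT (1.18 on the log2 scale, where the median span of genes of like level was 0.27) and 2.67-fold in PI KO (1.42, beside 0.28). In PI WT animals 1 and 3 were the high pair and animals 4 and 6 the low pair. In PI KO animals 2 and 5 were high and animals 4 and 6 low. The span of Hmox1 was also wider than that of like genes in CL WT (1.06 beside 0.58), and near it in CL KO (0.65 beside 0.62). Slc7a11 was wide in PI too (0.48 beside 0.14 in WT, 0.53 beside 0.15 in KO). Txnrd1 and Gsr were wide in PI KO (0.52 beside 0.18 and 0.56 beside 0.21) but not in PI WT (0.03 beside 0.17 and 0.12 beside 0.20).

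Srxn1 (chr2:152105516-152111376) encodes sulfiredoxin, which repairs over-oxidised peroxiredoxins. Its median was 62.7 CPM in CL WT (53.3 to 64.7 from second lowest to second highest) and 104 CPM in PI WT (93.4 to 108). The KO medians were 56.5 CPM in CL (55 to 57.7) and 95.5 CPM in PI (91.9 to 98.2). Groups of different side did not overlap, and the change was nearly the same size in each genotype, 0.75 in WT (SE 0.09, adjusted p = 0.000281) and 0.76 in KO (SE 0.06, adjusted p = 1.47e-05) on the log2 scale.

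Txnrd1 (chr10:82833951-82897712) encodes the cytosolic thioredoxin reductase, which recharges thioredoxin with NADPH. It had medians of 32.3 CPM in CL WT (31.3 to 35) and 47.8 CPM in PI WT (47.3 to 48.4), a log2 rise of 0.55 (SE 0.07, adjusted p = 0.000333). In KO the medians were 32.6 CPM in CL (30.6 to 33.7) and 48.9 CPM in PI (40.2 to 57.6), a rise of 0.58 (SE 0.13, adjusted p = 0.0149). Neither pair of groups overlapped, but from the second lowest to the second highest library PI WT spanned 0.03 on the log2 scale and PI KO 0.52. The call in KO was lost when the prior variance was set without a trend over expression (adjusted p = 0.0684).

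Gsr (chr8:33652523-33698163) encodes glutathione reductase, the enzyme that returns oxidised glutathione to its reduced form. In WT it went from a median of 21.3 CPM in CL (20.6 to 22) to 29.3 CPM in PI (27.6 to 30.1), and the groups did not overlap. The log2 rise was 0.45 (SE 0.07, adjusted p = 0.00229). In KO the medians were 22.6 CPM in CL (21.2 to 24.7) and 29.1 CPM in PI (23.7 to 35), the groups overlapped, and the estimate of 0.35 (SE 0.14) did not pass the test (adjusted p = 0.141). It passed when CL and PI of the same animal were paired (adjusted p = 0.0311 with the animal as a block).

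Slc7a11 (chr3:49892526-50443614, minus strand) encodes xCT, which brings in cystine in exchange for glutamate and so feeds glutathione synthesis. It had the largest estimates after those of Hmox1. In WT its median went from 51.9 CPM in CL (48.4 to 54) to 107 CPM in PI (90 to 126), and in KO from 59.9 CPM (55.1 to 62.7) to 105 CPM (83 to 119), without overlap in either genotype. The change was 1.05 on the log2 scale in WT (2.08-fold, SE 0.12, adjusted p = 0.000217) and 0.78 in KO (1.72-fold, SE 0.13, adjusted p = 0.00235).

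Gclc and Gclm encode the catalytic and the modifier subunit of glutamate cysteine ligase, the rate-limiting enzyme of glutathione synthesis. Gclm (chr3:122245557-122270732) had medians of 69.4 CPM in CL WT (64.7 to 72.8), 79.8 CPM in PI WT (78.6 to 89.9), 66.8 CPM in CL KO (62.8 to 70.8) and 83.9 CPM in PI KO (77.7 to 89). Its PI groups lay above the CL groups without overlap. In KO it rose by 0.32 (log2, SE 0.08, adjusted p = 0.0236; 0.0819 without the trend), and its estimate of 0.25 in WT (SE 0.08) did not pass (adjusted p = 0.058), though it did with the animal as a block (adjusted p = 0.0149). Gclc (chr9:77754535-77794485) had an estimate of 0.04 in WT (SE 0.09, 95% interval -0.15 to 0.23, adjusted p = 0.83) and 0.16 in KO (SE 0.07, interval 0.02 to 0.30, adjusted p = 0.142). Its medians were 72.1 CPM in CL WT, 74.1 in PI WT, 67.2 in CL KO and 74.8 in PI KO. The WT groups overlapped and the KO groups did not.

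Nfe2l2 itself (chr2:75675513-75704641, minus strand) had smaller estimates than Hmox1, Slc7a11 and Srxn1. NRF2 is known to be set largely by protein turnover, which was not measured. Its medians were 8.9 CPM in CL WT (7.54 to 9.73), 10.2 CPM in PI WT (9.77 to 13.2), 7.99 CPM in CL KO (7.18 to 10.1) and 12.7 CPM in PI KO (11.4 to 14.2). The groups did not overlap in either genotype. In KO it rose by 0.62 (log2, SE 0.16, 1.54-fold, adjusted p = 0.0253; 0.0624 without the trend), and its estimate in WT was 0.30 (SE 0.16, interval -0.04 to 0.64, adjusted p = 0.268).

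Nqo1 (chr8:107388225-107403206, minus strand), a quinone reductase often used as a readout of NRF2, was low. Its medians were 2.45 CPM in CL WT, 3.11 in PI WT, 2.54 in CL KO and 3.53 in PI KO, and the CL medians stand for about 17.3 reads in WT and 17.9 in KO. The estimates of 0.41 in WT (SE 0.22, interval -0.07 to 0.90, adjusted p = 0.295) and 0.44 in KO (SE 0.25, interval -0.11 to 0.99, adjusted p = 0.312) did not pass. They did with limma on the deposited values (adjusted p = 0.00547 and 0.0102), whose spread is understated by the drawn-in outer values. That fit called 6459 of all 14489 genes in WT and 6666 of all 14338 in KO. With the animal as a block neither estimate passed (adjusted p = 0.322 and 0.317). As deposited, PI lay above CL in 6 of 6 animals of each genotype, an ordering whose share over all genes was not counted. The recovered groups overlapped in KO and not in WT. Sqstm1 (chr11:50199366-50210827, minus strand) encodes p62, an autophagy receptor that also binds KEAP1. It was the most abundant of the 10 genes and had the smallest estimates after those of Gclc, with medians of 173 CPM in CL WT, 187 in PI WT, 177 in CL KO and 201 in PI KO. Its estimates were 0.10 in WT (SE 0.05, adjusted p = 0.302) and 0.19 in KO (SE 0.07, adjusted p = 0.0884).

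**Figure D2:**
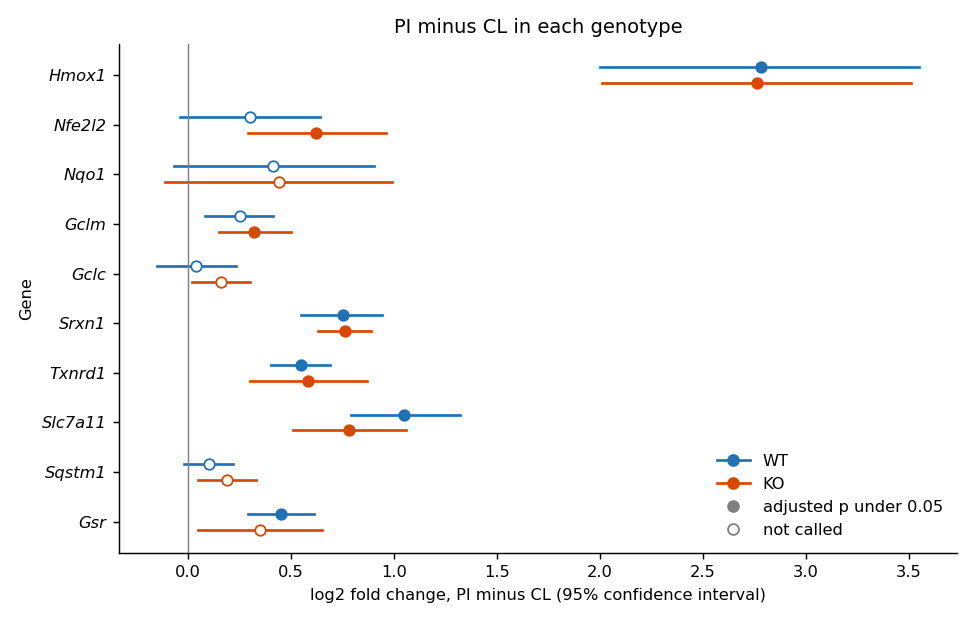
Difference between PI and CL of each gene on the log2 scale in WT and KO, with 95% confidence intervals. Filled points passed the test at an adjusted p under 0.05 and open points did not. Hmox1 stands at 2.78 and 2.76, Slc7a11 at 1.05 and 0.78, and the other 8 genes lie between 0.04 and 0.76 in both genotypes.

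Levels per kilobase of exon (summed over annotated exons in GENCODE M21) place the genes on 1 scale, here as trimmed means. In CL WT the order from high to low was Sqstm1 (51.3 CPM per kb), Srxn1 (21.5), Gclc (18.9), Gclm (11), Gsr (7.74), Txnrd1 (4.62), Slc7a11 (3.7), Nfe2l2 (2.3), Nqo1 (1.61) and Hmox1 (1.07). Srxn1 (18.9 to 22.9 from second lowest to second highest library) and Gclc (17.4 to 20.1) overlapped, as did Nqo1 (1.52 to 1.79) and Hmox1 (0.843 to 1.76), and the other neighbours did not. In PI WT Hmox1 reached 7.35 CPM per kb (5.38 to 12.1) and stood beside Slc7a11 (7.68) and Txnrd1 (6.75), whose ranges it overlapped. It had thus moved from the last place to the seventh. In KO Hmox1 went from 1.05 to 7.11 CPM per kb, and Sqstm1 led on both sides (51.7 and 59).

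The question the design poses is whether KO and WT animals differed. None of the 10 genes passed the test between PI KO and PI WT (limma-moderated trimmed-mean test, 0 of 10 also at an unadjusted p under 0.05, where 0.0208% and 5.75% of all 14452 genes passed). None passed between CL KO and CL WT (1 of 10 at an unadjusted p under 0.05, where 0.0279% and 5.73% of all 14323 genes passed). limma on the deposited values, whose spread is understated by the drawn-in outer values, called 2 of the 10 in PI (Nfe2l2 and Sqstm1), where it called 16.5% of all genes, and 1 in CL (Slc7a11), where it called 16.1%.

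In PI cortex the estimates of KO minus WT lay between -0.09 (Srxn1) and 0.25 (Nfe2l2) on the log2 scale. The 95% intervals, not adjusted for the number of genes, were -0.89 to 0.80 for Hmox1, -0.41 to 0.29 for Slc7a11, -0.25 to 0.31 for Txnrd1 and -0.25 to 0.07 for Srxn1. The interval thus allows a KO level of Hmox1 from 0.541-fold to 1.74-fold of that in WT, whereas those of Gclm (-0.14 to 0.21) and Sqstm1 (-0.02 to 0.24) were narrower. The interval for Nfe2l2 was -0.07 to 0.57, and its groups overlapped.

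In CL cortex the estimates lay between -0.10 and 0.21. Slc7a11 gave the upper end, at 0.21 (SE 0.07, 1.16-fold, 95% interval 0.05 to 0.37, unadjusted p = 0.0145 and adjusted p = 0.783 in the limma-moderated test). As deposited, all 6 CL KO libraries lay above all 6 CL WT libraries for this gene, an ordering that 6.7% of all genes showed. Hmox1 had an estimate of -0.03 in CL (interval -0.79 to 0.73).

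**Figure D3:**
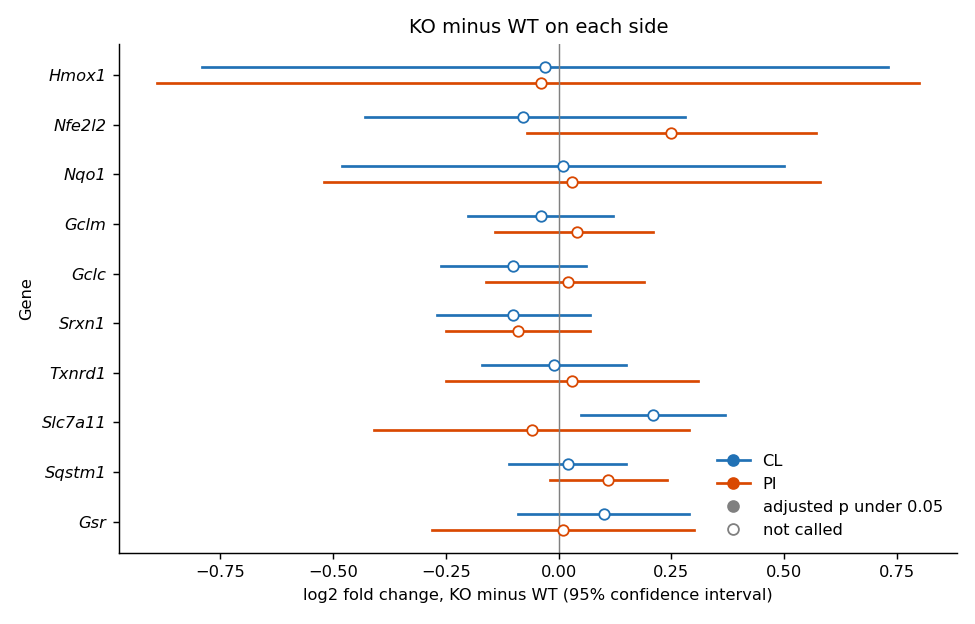
Difference between KO and WT of each gene on the log2 scale in CL and in PI cortex, with 95% confidence intervals. All points are open, since none passed the test at an adjusted p under 0.05. The interval of Slc7a11 in CL (0.05 to 0.37) is the only one that leaves out 0.

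The rise from CL to PI was also compared between genotypes, as the PI to CL difference in KO minus that in WT. None of the 10 genes passed in the limma-moderated trimmed-mean test (0 of 10 at an unadjusted p under 0.05 too, where 0% and 4.55% of all 14211 genes passed). limma on the deposited values called 0 of the 10 and 13.7% of all genes. Hmox1 differed by -0.02 (95% interval -1.17 to 1.13), Srxn1 by 0.01 (-0.23 to 0.24) and Txnrd1 by 0.04 (-0.29 to 0.36) on the log2 scale. The largest estimates were those of Nfe2l2, 0.32 (interval -0.16 to 0.81, adjusted p = 0.992), and Slc7a11, -0.27 (interval -0.68 to 0.13, adjusted p = 0.992). The calls of Nfe2l2 and Gclm in KO and of Gsr in WT alone are thus not shown to differ between the genotypes.

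Some libraries were high or low across many of the 10 genes. Each gene puts a pair of the 6 libraries of a group at either end by construction. The same counts over all genes were not made, so whether a whole library was high or low was not tested. The PI KO library of animal 4 was in the lowest pair for 9 of the 10 genes and in the highest pair for 0. Those of animals 2 and 5 were in the highest pair for 6 genes each and in the lowest for 0. The depth of animal 4 (6.71 megareads) lay between those of animals 2 (6.55) and 1 (7.07). In CL WT, animal 2 was in the highest pair for 8 genes and animal 4 in the lowest pair for 8. In CL KO, animal 6 was in the highest pair for 6 genes and in the lowest for 4, and animal 2 was in the lowest pair for 6. In PI WT no animal was in the highest or lowest pair for more than 4 genes.

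The closest patterns to Hmox1 over all 14210 other genes, ranked by the lower of 2 Pearson correlations over the 12 libraries of each genotype, were those of Aars (r = 0.983 in WT and 0.990 in KO), an alanyl-tRNA synthetase, and Stat3 (0.978 and 0.984), a transcription factor of cytokine signalling. Next came Serpinh1 (0.991 and 0.977), a collagen chaperone, Plin2 (0.979 and 0.976), a lipid droplet coat protein, and Sec61a1 (0.976 and 0.975), a channel subunit of the endoplasmic reticulum. These values describe mostly the gap between PI and CL, which all of the libraries share, and outer values that are tied. Among the other 9 members Slc7a11 ranked 99, Txnrd1 107 and Srxn1 157, while Gclc ranked 4011.

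Beyond the 10 genes, a list of 77 other genes of the pathway was examined, of which 71 were listed. It too was chosen with earlier results of these data known, so its shares are a description. In WT 11 rose and 4 fell, 21.1% of the listed genes, beside 10.6% of all genes. In KO 8 rose and 2 fell, 14.1% beside 10%. With the animal as a block 20 were called in KO (14 higher and 6 lower), 28.2% beside 15% of all genes, and without the trend 6 (6 higher and 0 lower), 8.45% beside 5.15%. The median change of the list was 0.06 in WT and 0.12 in KO on the log2 scale. Bach1, Cybb, Ftl1, Gstm5, Mgst1, Prdx1 and Slc3a2 were called in both genotypes.

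Of 11 regulators of NRF2, 1 rose and 1 fell in WT (18.2%, beside 10.6% of all genes) and 1 rose in KO (9.09%, beside 10%). Bach1, the haem-sensing repressor, rose by 0.46 in both WT (SE 0.09, adjusted p = 0.00403) and KO (SE 0.09, adjusted p = 0.00668), from a median of 19.5 to 26.9 CPM and from 19 to 26.7 CPM. Its relative Bach2 fell by 0.65 in WT (SE 0.13, adjusted p = 0.00784), and its estimate in KO was -0.53 (adjusted p = 0.0642). Keap1, the sensor, had an estimate of -0.01 in WT (adjusted p = 0.932), and of 0.08 in KO (adjusted p = 0.677).

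Of 12 glutathione genes, 1 rose in WT (8.33%, beside 10.6% of all genes), and 2 rose and 1 fell in KO (25%, beside 10%). Slc3a2, the heavy chain that partners xCT at the membrane, rose by 0.48 in WT (SE 0.07, adjusted p = 0.000785) and 0.55 in KO (SE 0.09, adjusted p = 0.00275). Gpx1, a glutathione peroxidase, rose in KO by 0.41 (adjusted p = 0.00983), with an estimate of 0.39 in WT that did not pass (adjusted p = 0.0726). Slc1a1, a neuronal glutamate and cysteine transporter, fell there by 0.27 (adjusted p = 0.047; 0.106 without the trend). Of 12 thioredoxin and peroxiredoxin genes, Prdx1 rose in both genotypes (0.37 in WT, adjusted p = 0.00386, and 0.24 in KO, adjusted p = 0.0436; 0.1 in KO without the trend) and Txnrd3 rose in WT (0.74, adjusted p = 0.0475; 0.0604 without the trend). The thioredoxin and peroxiredoxin calls were 16.7% of the 12 in WT and 8.33% in KO, beside 10.6% and 10% of all genes. All 7 genes that supply NADPH had estimates above 0 in both genotypes, as had 52.3% of all genes in WT and 49.9% in KO. Of the 7, 1 passed in each genotype (14.3%), Pgd in WT (0.45, adjusted p = 0.00737) and Tkt in KO (0.30, adjusted p = 0.0108). Both are of the pentose phosphate pathway.

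Of 8 haem and iron genes, Ftl1, the ferritin light chain, rose in WT by 0.35 (adjusted p = 0.0157) and in KO by 0.44 (adjusted p = 0.00832), and Fth1, the heavy chain, rose in WT by 0.19 (adjusted p = 0.0386; 0.121 without the trend). These calls were 25% of the 8 in WT and 12.5% in KO, beside 10.6% and 10% of all genes. Hmox2, the constitutive haem oxygenase, had estimates of -0.15 in WT and 0.05 in KO that did not pass (adjusted p = 0.388 and 0.75). Detoxification genes went both ways, with 28.6% called in WT and 14.3% in KO, beside 10.6% and 10% of all genes. Of 14 listed, Mgst1 rose (0.85 in WT, adjusted p = 0.0086, and 1.42 in KO, adjusted p = 0.000872), and Gstm5 fell in WT by 0.43 (adjusted p = 0.00694) and in KO by 0.31 (adjusted p = 0.0344; 0.107 without the trend). Mgst3 and Ephx1 fell in WT by 0.44 and 0.50 (adjusted p = 0.0106 and 0.0349), and their estimates in KO were -0.31 and -0.52 (adjusted p = 0.0788 and 0.06). Gstm5 has close paralogs, and how reads shared between them were counted is not stated. None of the 4 superoxide and peroxide removing genes passed in either genotype (at an unadjusted p under 0.05, 0 in WT, beside 23.9% of all genes, and 1, Sod1, in KO, beside 24.9%).

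Among genes of the NADPH oxidase of phagocytes, a source of superoxide, Cybb rose in both genotypes. This gene, which encodes the catalytic subunit, went from a median of 1.48 to 4.16 CPM in WT (a rise of 1.53, SE 0.27, adjusted p = 0.00355) and from 1.43 to 5.92 CPM in KO (2.40, SE 0.49, adjusted p = 0.0093; 0.0517 without the trend). Ncf1, a cytosolic organiser of the enzyme, rose in WT by 0.50 (adjusted p = 0.0353), and its estimate in KO was 0.51 and did not pass (adjusted p = 0.169). None of the 71 genes passed between KO and WT in PI or CL, or in the comparison of rises in the limma-moderated test. In each of these comparisons 3 had an unadjusted p under 0.05 (4.23%, beside 5.75%, 5.73% and 4.55% of all genes). limma on the deposited values called 9, 9 and 10 of them (12.7%, 12.7% and 14.1%, beside 16.5%, 16.1% and 13.7%).

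**Figure D4:**
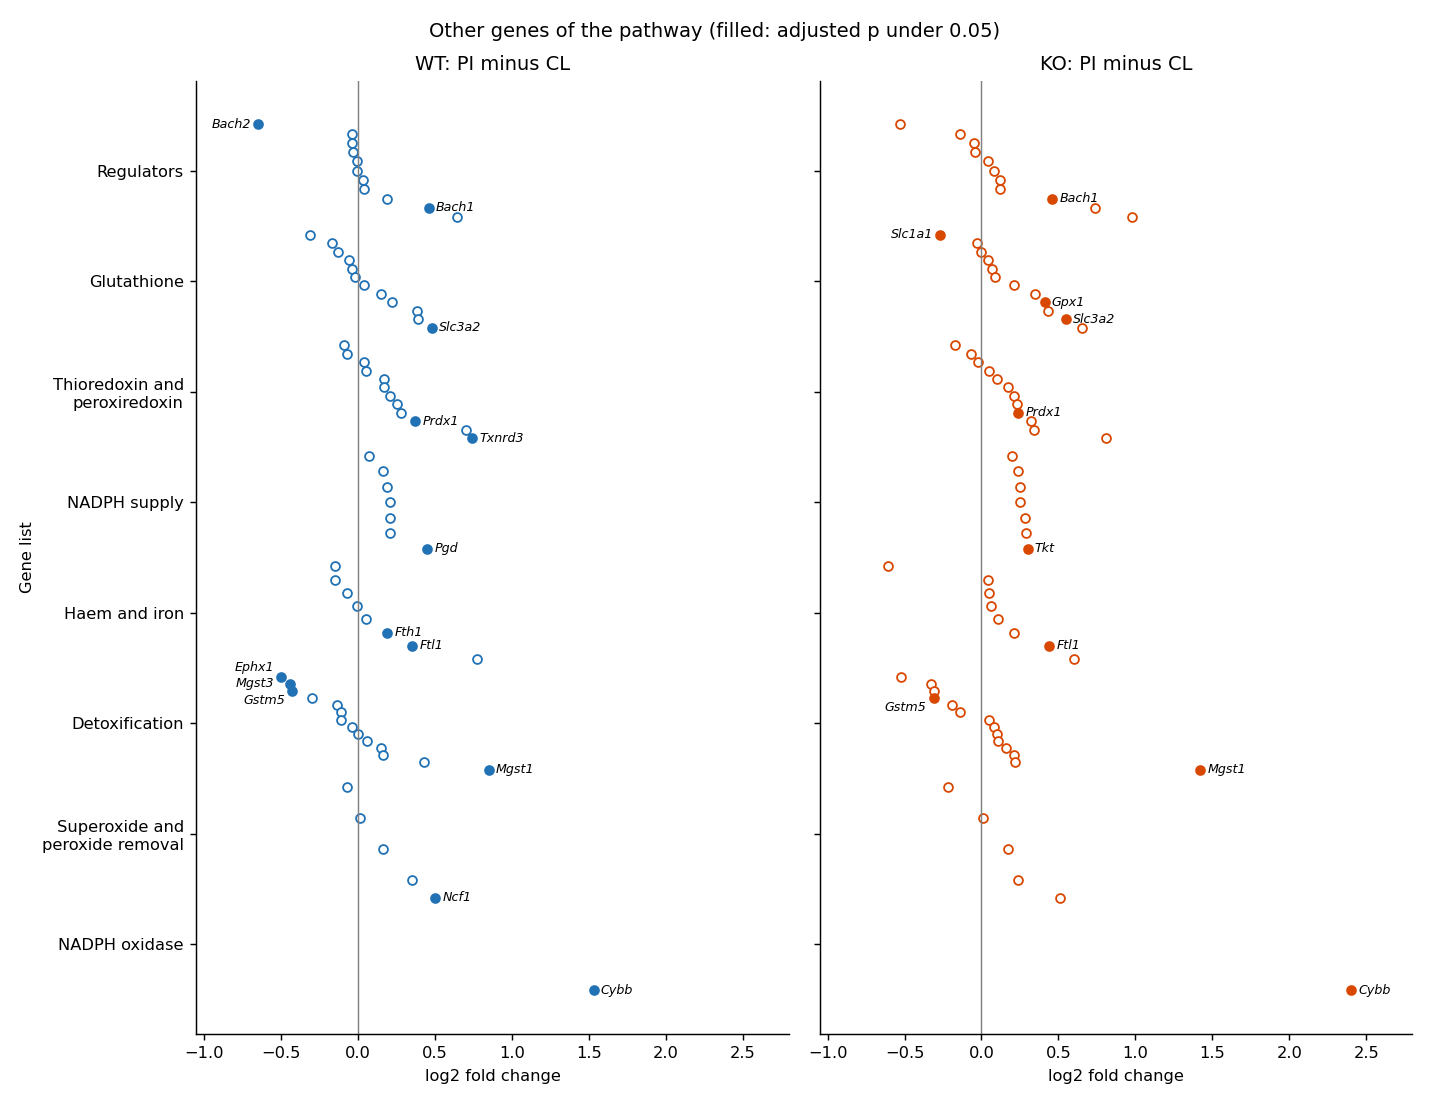
Difference between PI and CL on the log2 scale of 70 other pathway genes, ordered within 8 lists, in WT (left) and KO (right). Filled and named points passed the test at an adjusted p under 0.05 (14 in WT and 10 in KO). Cybb and Mgst1 lie farthest to the right in both panels.

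Several of these genes are also markers or products of particular cells, and the RNA is from whole tissue, in which fewer cells of a type and less RNA per cell cannot be told apart. All marker sums and their overlaps are of the deposited values. Their ranges can be too narrow, since outer values are drawn in. Macrophages of the brain borders, which express Hmox1, had 4 of 6 markers listed. Their sum was 14.2 to 16.2 CPM in CL WT and 21.6 to 28.1 CPM in PI WT, and 14.9 to 17.2 and 23.1 to 29.7 CPM in KO, with 3 of the 4 called higher in each genotype. The sum of 6 microglial markers was 158 to 170 CPM in CL WT and 166 to 187 in PI WT, and 168 to 180 and 181 to 218 CPM in KO, with 2 markers called higher and 1 lower in WT and 3 higher and 1 lower in KO. None of 8 neutrophil and monocyte markers was listed in the tables of PI and CL, and 2, S100a8 and S100a9, were listed in the table that sets PI KO beside PI WT.

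The sum of 6 astrocyte markers was lower in PI, at 7454 to 7857 CPM in CL WT and 6468 to 6870 in PI WT, and at 7467 to 7970 and 6281 to 6964 CPM in KO. Its members went both ways, with 1 called higher and 2 lower in WT and 1 higher and 1 lower in KO. That of 6 neuronal markers was 5669 to 6178 CPM in CL WT and 4854 to 5449 in PI WT, and 5725 to 5961 and 4677 to 5247 CPM in KO, with 0 called higher and 2 lower in WT and 1 higher and 2 lower in KO. Of 5 genes of red cells, a source of haem, 4 were listed, all of them globins. Their sums overlapped between CL and PI (12.3 to 52.1 and 30 to 50.4 CPM in WT, 10.8 to 61.8 and 35.4 to 51.4 CPM in KO). The median sum was higher in PI, at 25.4 CPM in CL and 34.2 in PI in WT, and 33.5 and 45 CPM in KO. Of the 4 globins, 0 were called in either genotype. Of 4 striatal markers, 2 were listed, with 1 called higher in WT and 0 called in KO. Their sum was 44.4 to 51.7 CPM in CL WT and 59.3 to 79.9 in PI WT, and 41.6 to 52.2 and 53.9 to 77 CPM in KO. The sum of 6 oligodendrocyte markers was 2066 to 2248 CPM in CL WT and 1437 to 2041 in PI WT, and overlapped in KO. Endothelial sums overlapped in both genotypes. No single oligodendrocyte or endothelial marker was called in either genotype. The part of any of these cells in the changes of Hmox1, Slc7a11 and the other genes was not tested.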

How the data were processed

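Ribosome-depleted total RNA from 24 cortex libraries was sequenced with the CORALL kit, per the labels' protocols. Samples were grouped by title, and each column of values matched the description of 1 sample, with 0 columns left over. The values are log2 CPM as deposited, in 4 tables of 12 columns, per the file headers. The build was mm10, per the submitters' processing notes. The aligner, the counting and its use of strand, and any filter are not given in the sources used here. In 100% of genes the lowest and the highest pair of each group were tied, a step that no label records. Each tied value was assumed to be a quartile, 0.75 times the nearer plus 0.25 times the farther inner value. The ties were checked and this formula was not. The 4 inner values were solved from the assumed formula and the outer ones were not, so spread is estimated from part of each group. Recovered levels, spans, overlaps, trimmed means and errors rest on that assumption. Scaling was done per table, which shifted a library's log2 values by a median of 0.0265 to 0.0332 from one table to the other. Depth was taken from the step that made low CPM values whole within 0.1 read.

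Group differences are of trimmed means of 4 values. The error is the Winsorized sum of squares, with 6 degrees of freedom for 2 groups and 12 for 4, moderated by limma 3.58.1 in R 4.3.3 with a mean trend. Tests were two-sided, fitted over all genes of a table and adjusted by Benjamini-Hochberg, and genes were called at an adjusted p under 0.05. A count test was not run, since outer values are not reads. Replicates are animals. CL and PI libraries of 1 number come from the same animal, per the labels' genotype field. Their deviations from the group means correlated at -0.0418 to 0.239, beside median correlations of -0.0869 to 0.0404 with libraries of other numbers. The pairing is taken from the labels. The main test does not use this pairing, which enters only through the block alternative. The alternatives were limma on the deposited values, no trend, a filter at 1 CPM, centring on the median gene and an animal or number block.

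The 10 genes and the lists were chosen with earlier results of these data known. Named genes were the 10, up to 3 called genes per pathway list, direction and comparison with the smallest adjusted p, and the 5 genes most like Hmox1. The values of 1 pathway gene are not reported here, though the counts over the list include it. Gene positions are from GENCODE M21 (GRCm38), and promoter windows from RefSeq.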

Additional observations from a re-analysis of the deposited data

Results flagged for a closer look

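Sod1, the cytosolic superoxide dismutase, and Akr1a1, an aldehyde reductase, had estimates below 0 in WT and above 0 in KO, none of which passed the test (adjusted p = 0.614 and 0.0575 for Sod1, 0.279 and 0.387 for Akr1a1). They were picked by a rule on the deposited values of the 10 genes and the 71 others. PI had to lie on 1 side of CL in 6 of 6 WT animals, and on the other side in 6 of 6 KO animals. For both genes it lay below CL in WT and above CL in KO. This ordering, and the intervals below of the same contrast, are thus no separate support. The share of all genes with such an ordering was not counted. For Sod1 the difference between PI and CL was -0.07 in WT and 0.24 in KO on the log2 scale, which differ by 0.30 (95% interval 0.10 to 0.51). For Akr1a1 it was -0.11 in WT and 0.08 in KO, which differ by 0.19 (interval 0.04 to 0.34). In the limma-moderated test of that difference neither passed after adjustment over all genes (unadjusted p = 0.00617 for Sod1 and 0.0183 for Akr1a1, adjusted p = 0.992 for both). Of the 71 pathway genes, 3 (these and Mgst1) had an unadjusted p under 0.05 there, 4.23% beside 4.55% of all genes. All 10 genes described above had estimates above 0 in both genotypes.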

How the results depend on the processing

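None of the 75 results for single genes that were recomputed reversed under the 5 alternatives. All of these but the centring keep the same estimate by construction. A reversal was thus not possible under them, and its absence is no support. With limma on the deposited values, 9 of the 10 genes were called in WT, 10 in KO, 2 between PI KO and PI WT and 1 between CL KO and CL WT. Of the 71 other pathway genes it called 39, 48, 9 and 9 in these comparisons and 10 in the difference of rises. Over all genes it called 6459, 6666, 2388, 2311 and 1940, beside 1537, 1440, 3, 4 and 0. Its error is understated by construction, since outer values are drawn in. Without the trend, 3 of the 10 genes (Hmox1, Srxn1 and Slc7a11) and 6 pathway genes were called in KO, and over all genes 1015 in WT, 739 in KO and 2 between PI KO and PI WT; the cause was not tested. With the replicate block, which pairs CL and PI of an animal, 20 pathway genes were called in KO, and the calls of Gclm in WT and Gsr in KO changed as given above, while 72 of the 75 kept their side of the threshold. Over all genes the block gave 2275 in WT, 2154 in KO, 6 in PI, 85 in CL and 1 in the difference of rises, where in PI and CL a shared number joins different animals. The filter at 1 CPM and the centring changed no call among those 75 results. Among the 10 genes, the medians of Hmox1 in CL and of Nqo1 stand for 11.7 to 22.7 reads, which limits their precision.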
